A study of Mus musculus with 20 samples.

Results

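The cells described here are mouse embryonic stem (ES) cells in which Gata6 transcripts were captured 9 hours after Gata4 was switched on. They were chosen on a measured value. In the 2 libraries collected at 9h, cells with at least 10000 unique molecular identifiers (UMIs, tags that each mark 1 captured RNA molecule) were kept, and those with 1 or more Gata6 UMI were called Gata6-positive. This rule found 2109 of 8938 kept cells, 1062 in replicate 1 and 1047 in replicate 2, out of 134279 cells in the 20 libraries of the series. The other 3041 and 3788 cells, with no Gata6 UMI, were called Gata6-negative and served as the comparison. Because Gata6 chose the classes, its own level is a description and was not tested.

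The study converted ES cells to extra-embryonic endoderm (XEN) cells and XEN cells back to pluripotency, and sampled both routes by droplet 3' single-cell RNA-seq in technical duplicates, so p-values here measure only the spread between such libraries. The 0h, 9h, 24h and 48h groups were all of 1 line, iGata4-Gata6-Venus ES, genotype Col1A1TetO-Gata4/+; R26M2rtTA/+; Gata6H2B-Venus/+, and the iXEN group carried the same alleles. Every one of these groups therefore has a doxycycline-inducible Gata4 transgene, a transactivator at the R26 locus and a Venus reporter in 1 Gata6 allele. The ES cells at 0h were grown in serum and LIF without doxycycline, the 9h, 24h and 48h cells received doxycycline for that time, and iXEN cells were collected after doxycycline had been given and withdrawn. The XEN day 0 group is another line, 3F-4 XEN, derived from embryos, that carries the reprogramming cassette Col1A1TetO-OKSmCh/TetO-OKSmCh, the transactivator R26M2rtTA/M2rtTA and the reporter Oct4-GFPTg/Tg, and was cultured without doxycycline. The paper describes the induced factor as a Gata4-mCherry fusion. Whether 3' libraries count its transcripts as Gata4 is not known, and any that are cannot be told apart from the endogenous gene. Venus was not measured in the count tables.

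The 9h cells were sorted by flow cytometry on PDGFRα and Venus into 4 gates that were then mixed in roughly equal parts, while the 24h and 48h cells were not sorted. The share of Gata6-positive cells at 9h is thus set in part by the sort, and the gate of a cell cannot be read from the data. The 0h libraries carry another project code in the names of their data than the 9h libraries, so time and project cannot be told apart between them, whereas both classes at 9h come from the same libraries. The 9h libraries held 4725 and 5331 cells with median depths of 23722 and 18965 UMIs. They shared 45 barcodes, of which 32 and 37 were among the kept cells.

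Gata6 and Gata4 are zinc finger transcription factors that specify the primitive endoderm (PrE), the extra-embryonic sister of the pluripotent epiblast in the inner cell mass. In that choice Gata6 and Nanog mark and oppose each other: cells that keep Gata6 become PrE, with FGF signalling acting through ERK favouring that fate, and cells that keep Nanog become epiblast. PDGFRα is an early surface receptor of PrE cells. Laminins, type IV collagens and endocytic proteins such as Dab2 and Cubn come later as the endoderm matures. Forced Gata4 or Gata6 drives ES cells along this route in culture.

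The Gata6 signal at 9h was low in each cell. In replicate 1, 728 cells had 1 Gata6 UMI, 227 had 2, 60 had 3 and 47 had 4 or more, with a maximum of 7. In replicate 2, 772 cells had 1 UMI, 206 had 2, 47 had 3 and 22 had 4 or more, with a maximum of 5. Most members thus sat just inside the rule, 1 UMI away from the negative class. At the depth limit, 622 and 496 cells fell under 10000 UMIs and were left out, and 4 and 13 of these had a Gata6 UMI.

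**Figure D1:**
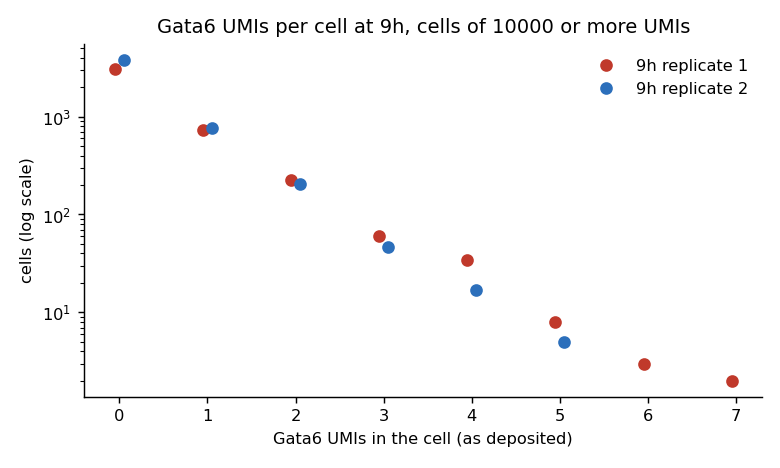
Number of 9h cells (vertical axis, log scale) by the Gata6 UMIs counted in the cell (horizontal axis), as points for replicate 1 (red) and replicate 2 (blue), cells of 10000 or more UMIs. The numbers drop at each step from 3041 and 3788 cells with no UMI to 2 cells with 7 UMIs in replicate 1 and 5 cells with 5 UMIs in replicate 2.

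The share of Gata6-positive cells was 25.9% in replicate 1 (95% exact binomial interval 24.5 to 27.3, counting error only) and 21.7% in replicate 2 (20.5 to 22.8). After every cell was thinned at random to 10000 UMIs, the shares were 11.6% (10.6 to 12.6) and 11.1% (10.3 to 12.1). A Gata6-negative cell is therefore a cell in which no Gata6 molecule was captured, not a cell shown to lack the transcript. Before induction, 22 of 5914 and 16 of 7022 ES cells had a Gata6 UMI, or 0.372% and 0.228%, at median depths of 14655.5 and 15030.5 UMIs against 25492 and 19906 at 9h. Thinned to the same 10000 UMIs, the 0h shares were 0.169% and 0.128%, so the 9h shares lay above the shares in cells without induced Gata4 in both libraries. Sorting and project differ between these times, and their part in the difference was not tested.

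Gata6-positive cells were deeper than Gata6-negative cells, with medians of 28430.5 against 24680 UMIs in replicate 1 and 21748 against 19507.5 in replicate 2. All comparisons below therefore used counts thinned to 10000 UMIs per cell and summed per library and class, given as CPM (the UMIs of a gene over all UMIs of the sum, scaled to a common total). After thinning, the median number of genes per cell was 2569 against 2559 and 2559 against 2542, and the median mitochondrial share was 1.70% against 1.72% and 1.75% against 1.72%. The part that depth before thinning plays in a class difference was not tested directly. With the class read after thinning in place of before, 19 of the 30 leading genes named below were still called in the same direction, 10 no longer passed and Stmn2 changed sign.

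Between the classes, 87 of 12132 genes tested were called at an adjusted p under 0.05 (0.717%), 28 of them higher in Gata6-positive cells (0.231%) and 59 lower (0.486%), by edgeR's quasi-likelihood test paired by library with Benjamini-Hochberg adjustment over all genes. A further view of the same test is that 1342 genes had an unadjusted p under 0.05, or 11.1% of those tested. The differences were small: 16 of the 28 higher and 45 of the 59 lower genes differed by less than 10%, and of 87 ribosomal protein genes tested, 11 were among the 28 and 25 among the 59. How many genes were called varied from 87 to 288 over 6 random thinning draws, and 15 of the higher and 17 of the lower genes were called in all 6. With another scaling, RLE size factors, the reported draw itself gave 195. The count was 14 with DESeq2, 2 in a model of the 9h, 24h and 48h libraries, 0 to 2 when a 9h library was left out of that model and 0 without the pairing by library, with 801 genes at an unadjusted p under 0.05. Across genes with at least 50 CPM, the log2 ratios of the libraries correlated with r = 0.50 over 2251 genes, and across those with at least 20 CPM with r = 0.36 over 4349 genes. Genes are not independent replicates. Standard errors given below come from edgeR's quasi-likelihood test, and for some genes they lie under the counting error of the sums.

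**Figure D2:**
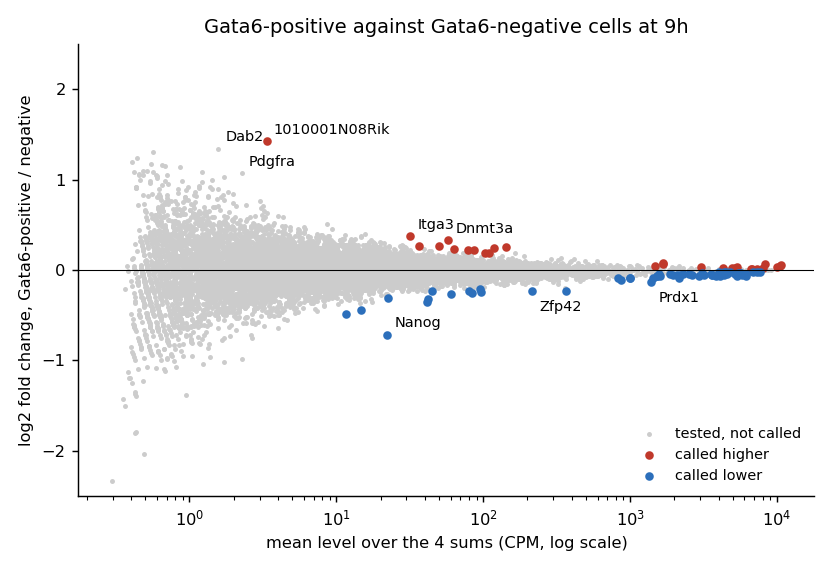
Log2 fold change between Gata6-positive and Gata6-negative cells at 9h (vertical axis) against the mean level over the 4 sums in CPM (horizontal axis, log scale), 1 point per gene tested without Gata6. Red points mark the 28 genes called higher and blue points the 59 called lower, and Nanog stands lowest among the called genes while Pdgfra and Dab2 lie high but are not called in the thinning draw shown, 1 of 6.

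Nanog, the epiblast homeobox factor that opposes Gata6, had the lowest ratio among the called genes. Its level was 17.4 CPM in Gata6-positive against 26.1 CPM in Gata6-negative cells of replicate 1, and 16.2 against 28.8 CPM in replicate 2. Both positive sums lay below both negative sums. The log2 fold change was -0.72 ± 0.072 (SE, adjusted p = 0.00027), a difference of -39.1%. A Nanog UMI was found after thinning in 160 of 1062 Gata6-positive and 638 of 3041 Gata6-negative cells of replicate 1, and in 151 of 1047 and 812 of 3788 cells of replicate 2. Cells with exactly 1 Gata6 UMI were already low in Nanog, at 18.8 and 15.3 CPM in the 2 libraries, and those with 2 or more had 14.4 and 18.9 CPM. ES cells at 0h had 79.3 and 70.8 CPM, so both classes at 9h lay below the level of the starting cells, which were of another project. Nanog was called in all 6 thinning draws.

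The rest of the naive and general pluripotency list fixed for this report moved less. Of its 34 genes, all tested, 5 were called lower in Gata6-positive cells, where 0.486% of all genes tested were, and none was called higher (0.231% of all genes). At an unadjusted p under 0.05 there were 15 of 34, where 11.1% of all genes tested were. The list's median log2 fold change was -0.07 beside 0.00 over all genes tested. Besides Nanog these were Trh, the precursor of thyrotropin-releasing hormone (-0.31 ± 0.062, adjusted p = 0.045), Tcl1, a coactivator of AKT kinases (-0.25 ± 0.044, adjusted p = 0.018), Zfp42, also known as Rex1 and a classical mark of naive pluripotency (-0.23 ± 0.041, adjusted p = 0.022), and Dppa5a, an RNA-binding protein of pluripotent cells (-0.05 ± 0.003, adjusted p = 3.5e-06). Zfp42 measured 206 against 233 CPM in replicate 1 and 193 against 231 CPM in replicate 2. Tcl1 measured 73.7 against 91.9 CPM and 79.6 against 90.1 CPM. Dppa5a shows how small a called difference can be, with 5586 against 5749 CPM in replicate 1. The core factors were not called: the log2 fold change was -0.08 for Pou5f1 (adjusted p = 0.15), -0.14 for Sox2 (adjusted p = 0.21) and -0.10 for Klf4 (adjusted p = 0.36).

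The window around a start site of Nanog annotated in RefSeq (GRCm38.p6, chr6:122707315-122707614, plus strand, 250 bases before to 50 after the start) is shown because Nanog had the lowest ratio of the called genes, beside that of Sdc4 (chr2:164443139-164443438, minus strand), a gene higher in Gata6-positive cells. The other Nanog window, from a different annotated start (chr6:122707239-122707538), held no match and is not printed. Capitals mark matches to the GATA motif, searched as AGATAA, as AGATAG, as TGATAA and as TGATAG on both strands.
Nanog: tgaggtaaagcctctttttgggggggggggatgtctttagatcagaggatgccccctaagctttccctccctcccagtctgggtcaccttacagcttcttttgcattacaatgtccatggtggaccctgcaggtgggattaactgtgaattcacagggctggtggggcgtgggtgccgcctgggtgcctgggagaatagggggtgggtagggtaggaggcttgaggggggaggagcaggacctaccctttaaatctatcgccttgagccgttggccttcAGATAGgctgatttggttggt
Sdc4: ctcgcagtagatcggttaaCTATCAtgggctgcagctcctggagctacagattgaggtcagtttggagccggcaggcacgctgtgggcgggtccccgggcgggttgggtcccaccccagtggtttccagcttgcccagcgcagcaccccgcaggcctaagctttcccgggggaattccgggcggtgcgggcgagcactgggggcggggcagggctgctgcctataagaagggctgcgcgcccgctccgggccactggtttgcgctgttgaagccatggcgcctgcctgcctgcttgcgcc
The Nanog match begins 29 bases after the start site and the Sdc4 match 231 bases before it, on the opposite strand. Such matches are common: 29.8% of 32851 promoter windows held at least 1. Of the 30 leading genes, 22 had a window in the table, some with more than 1 start site. By window, 2 of 15 from higher and 4 of 13 from lower genes had a match. A match is a stretch of letters and not a binding site.

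Among the other leading lower genes, Anxa2, a membrane-binding annexin, had 10.2 against 13.7 CPM in replicate 1 and 9.26 against 13.4 CPM in replicate 2 (log2 fold change -0.49 ± 0.095, adjusted p = 0.041). Ndufa4l2, a mitochondrial protein related to a respiratory chain subunit, had 13.5 against 16.7 CPM and 11.6 against 16.9 CPM (-0.44 ± 0.087, adjusted p = 0.047). Ccs, the copper chaperone of superoxide dismutase, had 39.3 against 47.6 CPM and 33.8 against 45.2 CPM (-0.36 ± 0.052, adjusted p = 0.0051). Anxa2 was called in 2, Ndufa4l2 in 4 and Ccs in 3 of the 6 thinning draws, between -0.49 and -0.19, -0.44 and -0.24, and -0.36 and -0.094. In all 3 genes the lower value of each library belonged to the Gata6-positive cells and the classes did not overlap. Sfn, the epithelial 14-3-3 protein, had a log2 fold change of -0.32, and the transcription factor gene Msc one of -0.26. Tubb2b, Rfc3, Lgals3, Spp1 and Hmces lay between -0.24 and -0.21. Over the draws Rfc3 reached -0.082 and Tubb2b -0.11, with calls in 2 and 4 of the 6. Prdx1, an abundant peroxiredoxin, differed by -8.98%, with 1320 against 1433 CPM and 1335 against 1467 CPM.

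Itga3 had the highest ratio among the called genes with a mean of at least 5 CPM. This gene, which encodes the alpha chain of a laminin-binding integrin, had 36.2 against 27.4 CPM in replicate 1 and 36.2 against 27.9 CPM in replicate 2. The positive sums agreed closely and both lay above the negative sums, with a log2 fold change of 0.38 ± 0.051 (adjusted p = 0.0034), or 29.9% higher. Kept at or above counting error, its standard error was 0.062 (adjusted p = 0.017). Dnmt3a, a DNA methyltransferase that sets new methylation, had 61.0 against 50.8 CPM and 68.2 against 51.6 CPM (0.33 ± 0.046, adjusted p = 0.0039). Its level was 27.7 and 25.3 CPM at 0h, so it was above the starting level in both classes. Suz12, a Polycomb repressive complex subunit, was higher by 0.27 (adjusted p = 0.015), and Paxip1, a partner of histone methyltransferases, by 0.26 (adjusted p = 0.026), but these were called in 2 and 1 of the 6 thinning draws, with values down to 0.089 and 0.13. Itga3 was called in all 6, between 0.24 and 0.38, but not at a depth of 5000 UMIs (0.21, adjusted p = 0.42), where 13 of the 30 leading genes lost the call.

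Shkbp1, which encodes a binding partner of an endocytic adaptor, had 157 against 132 CPM in replicate 1 and 157 against 129 CPM in replicate 2 (log2 fold change 0.26 ± 0.036, adjusted p = 0.0039). Sdc4, a cell surface heparan sulphate proteoglycan, had 125 against 110 CPM and 133 against 106 CPM (0.25 ± 0.041, adjusted p = 0.014). Lamc1, the laminin gamma 1 chain, had 66.5 against 56.2 CPM and 71.3 against 60.2 CPM (0.24 ± 0.040, adjusted p = 0.017). Lamc1 was called in 5 of the 6 draws, between 0.075 and 0.24. In each of these genes both positive sums lay above both negative sums. Stmn2 and Basp1, genes also used by neurons, were higher by 0.23 and 0.22 on the log2 scale, and Ptp4a2 and H2afj by 0.19 and 0.18. H2afj was called in 1 of the 6 draws and was 0.073 at its lowest, and Stmn2 was called in all 6, between 0.15 and 0.26. Without the deepest cells, however, Stmn2 was 0.13 and not called (adjusted p = 0.17), and with the class read after thinning it was -0.036. The remaining leading genes, Gm10076, Rpl41, Mkrn1 and Ftl1, were higher by between 3.58% and 5.30%. Reads of ribosomal protein genes such as Rpl41 can be shared with near-identical copies, which makes such small values uncertain.

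**Figure D3:**
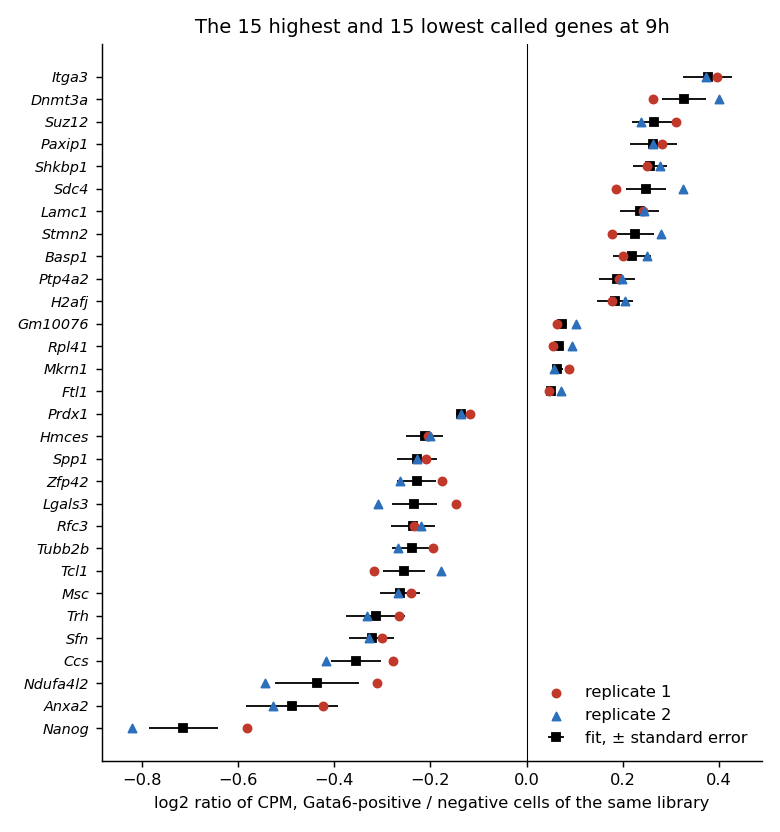
Log2 ratio of CPM between Gata6-positive and Gata6-negative cells of the same library (horizontal axis) for the 15 highest and 15 lowest called genes (vertical axis), with replicate 1 as circles, replicate 2 as triangles and the fitted value with its standard error as squares. The fitted values run from Nanog at -0.72 to Itga3 at 0.38. The genes were chosen on this fit, so the sides of 0 on which both libraries lie are no separate evidence.

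Pdgfra and Gata4 did not pass the test at 9h, and for Pdgfra that depended on the settings. It had 2.82 CPM in Gata6-positive against 1.35 CPM in Gata6-negative cells of replicate 1 and 3.34 against 1.56 CPM in replicate 2, resting on 30 and 35 UMIs in the positive sums. Its log2 fold change was 1.07 ± 0.23 with an adjusted p of 0.070, and it was called in 1 of the 6 thinning draws. It was above 0 in all 23 alternatives, with 0.43 as the lowest value, and was called in 9, among them RLE size factors (adjusted p = 0.013), no thinning (adjusted p = 9.7e-05) and cells of 20000 or more UMIs (adjusted p = 0.034). On the counts before thinning, 67 of 1062 Gata6-positive cells (6.31%, 4.92 to 7.94) and 108 of 3041 Gata6-negative cells (3.55%, 2.92 to 4.27) had a Pdgfra UMI in replicate 1, and 5.92% against 3.19% in replicate 2. These shares are not corrected for depth. PDGFRα was itself a sort marker, which sets how many of its cells were collected, and how the gates fall over the classes is not known.

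Gata4, the gene of the induced factor, was not called at 9h, though its UMIs may not measure the transgene. It had 3.95 against 3.62 CPM in replicate 1 and 3.25 against 2.85 CPM in replicate 2, and the log2 fold change was 0.15 ± 0.19 (adjusted p = 0.85). With cells of 5000 or more UMIs thinned to 5000, its value was -0.061. At 0h Gata4 measured 0.271 and 0.142 CPM, below its level in either class at 9h.

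Of the 12 PrE transcription factor genes tested, none was called and 4 had an unadjusted p under 0.05, with a median log2 fold change of 0.07. With 0.717% of all genes called, a count of 0 of 12 is close to the background, and it holds for the reported draw, since Runx1 was called in 3 of the 6. Runx1 had 17.1 against 13.6 CPM and 16.3 against 12.2 CPM (0.37 ± 0.081, adjusted p = 0.074). Sox17 had a log2 fold change of 0.21 (adjusted p = 0.87). Of 12 PrE and XEN membrane and secreted protein genes tested, none was called in the reported draw, although Dab2 was in the other 5, and 4 had an unadjusted p under 0.05, with 10 above 0 and a median of 0.15. Of 23 basement membrane genes tested, Lamc1 alone was called higher and none lower in the reported draw, and 12 had an unadjusted p under 0.05, where 11.1% of all genes tested did, with 21 above 0 and a median of 0.12. Over the 6 draws Itga6 was called in 2 and Lamb1 in 1. In that list Lamb1 had a log2 fold change of 0.39 (adjusted p = 0.12) and Col4a1 one of 0.35 (adjusted p = 0.14).

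The Dab2 difference depended on 3 cells. Dab2, an endocytic adaptor of extra-embryonic endoderm, had 2.73 against 0.888 CPM in replicate 1 and 1.81 against 0.871 CPM in replicate 2, with a log2 fold change of 1.34 ± 0.29 (adjusted p = 0.065). The reported thinning draw was its lowest and its only miss, with values up to 1.89 and a call in the other 5 draws. In cells with 2 or more Gata6 UMIs against those with none, the value was 2.53 ± 0.36 (adjusted p = 6.6e-09). However, 2 cells of replicate 1 and 1 cell of replicate 2 held 35, 38 and 22 UMIs over Dab2, Cubn, Srgn and Lamb1, while no other 9h cell had more than 5. All 3 cells were Gata6-positive, with 5, 2 and 3 Gata6 UMIs. They had no Nanog UMI, 1, 2 and 6 UMIs of Pou5f1 and 31, 76 and 46 UMIs of Dppa5a. Before thinning, a Nanog UMI was found in only 34.2% and 32.0% of all Gata6-positive cells, against 38.8% and 34.6% of Gata6-negative cells. These shares are not corrected for depth. Without the 3 cells, chosen after the values were seen, the Dab2 difference was 0.54 (adjusted p = 0.58), and 1.04 (adjusted p = 0.43) for 2 or more Gata6 UMIs. The cells were picked on Dab2 and Lamb1 among others, so part of the fall in these genes was set by the choice. Foxq1, a forkhead factor, had a log2 fold change of 0.60 (adjusted p = 0.33). With 2 or more Gata6 UMIs it was 1.37 (adjusted p = 0.0023), and 0.97 (adjusted p = 0.14) without the 3 cells, so most of the difference stayed while the call was lost. For 1 or more Gata6 UMIs and without the 3 cells, Lamb1 was 0.35 and Lamc1 0.22 (adjusted p = 0.0089). For 2 or more they went from 0.44 to 0.30 and from 0.33 to 0.27, and Lamc1 lost its call (adjusted p = 0.0062 and then 0.060). For 1 or more Gata6 UMIs the Nanog difference was -0.71 and that of Pdgfra 1.05 (adjusted p = 0.035) without them. No ES cell at 0h was of this kind, against 45 and 11 cells at 24h and 1297 and 3594 cells at 48h.

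Another transcript was chosen after its values were seen because it lies beside Gata6. 1010001N08Rik is a long non-coding RNA gene on the minus strand (GRCm38, chr18:10987944-11052567) that overlaps the start of Gata6, on the plus strand (chr18:11052064-11085635), by 504 bases. It had 4.43 against 1.84 CPM in replicate 1 and 5.35 against 1.80 CPM in replicate 2, and 0.0169 and 0 CPM at 0h. The log2 fold change of 1.42 ± 0.20 (adjusted p = 0.0044) was the largest among the called genes. The counting is not stated to use strand, so molecules from the overlap cannot be told apart from Gata6, which chose the classes.

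In the draw reported, which has the fewest calls of the 6, 0.717% of all genes tested were called. Counts of 0 in short lists are close to that background. The signalling lists gave no call in either direction: 0 of 25 FGF and ERK genes, 0 of 18 Nodal, BMP and TGF-beta genes, 0 of 6 GATA factor and cofactor genes, 0 of 5 PDGF genes and 0 of 14 immediate early genes. At an unadjusted p under 0.05 there were 7, 7, 0, 2 and 4, where 11.1% of all genes tested were. Single members were called in other draws, Phlda1 and Id2 in 5 of the 6, Tdgf1 and Pdgfa in 4 and Spry4 in 2. In the FGF and ERK list the median log2 fold change was 0.09, with 19 of 25 genes above 0. Spry4, a feedback inhibitor of this pathway, had 20.0 against 15.6 CPM and 19.8 against 16.4 CPM (0.30 ± 0.072, adjusted p = 0.099), and Phlda1 had 120 against 108 CPM and 122 against 106 CPM (0.17 ± 0.037, adjusted p = 0.073). Pdgfa, the ligand of PDGFRα, had 68.7 against 77.0 CPM and 68.7 against 79.8 CPM (-0.20 ± 0.041, adjusted p = 0.055). In the reported draw Dnmt3a was called higher of 12 formative pluripotency genes, with a median of 0.15, and Anxa2 lower of 23 actin and adhesion genes, with a median of -0.08, beside 0.231% and 0.486% of all genes. Over the 6 draws S100a6 and S100a11 of the actin and adhesion list were called in 5 and 4, more than the 2 of Anxa2. In the reported draw none was called of 6 mesendoderm genes, 18 G1/S and 20 G2/M cell cycle genes, 14 p53 targets and 16 endoplasmic reticulum stress genes, and 1, 3, 3, 1 and 2 of these had an unadjusted p under 0.05. Beside these stand 0.717% and 11.1% of all genes tested. In other draws Slbp was called in 3, Cdc20 in 2, and Tyms, Phlda3 and Asns in 1 each.

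Markers of other cell types gave 1 call. Of the 5 neural marker genes tested, Stmn2 was called higher, beside 0.231% of all genes. None was called of the 5 trophoblast, 5 visceral endoderm, 8 parietal endoderm, 7 germ cell and 6 feeder fibroblast markers tested. With 0.717% of all genes called, such counts of 0 are close to the background. At an unadjusted p under 0.05 there were 2 neural, 2 parietal endoderm and 0 of the other markers, where 11.1% of all genes tested were. The Stmn2 call was lost without the deepest cells. The feeder markers summed to 7.34 and 7.74 CPM in Gata6-positive and 7.60 and 6.31 CPM in Gata6-negative cells. In the 2 libraries 10 and 11 of the 17 feeder markers had a UMI, while Col1a2, Col3a1 and Dcn were at 0. Only 3 of 21 markers of 2-cell-like cells had a UMI, and no kept cell had 3 or more UMIs over that list. The visceral endoderm markers summed to 87.3 and 89.4 CPM against 82.2 and 85.9 CPM. Of these 14 markers, 9 and 11 had a UMI, with Afp and Ttr at 0. The parietal endoderm markers summed to 474 and 454 CPM against 455 and 433 CPM. At least 3 of their UMIs were held by 75.2% and 74.0% of Gata6-positive cells, against 74.3% and 71.8% of Gata6-negative cells. Of these 12 markers, 10 and 12 had a UMI, with Thbd and Stra6 at 0 in replicate 1. Lamb1, a member of the list, made up only 13.1 and 13.1 against 10.4 and 9.48 CPM of the sums. The sums were not split further by gene, so these shares do not mark parietal endoderm cells.

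By likeness of detection, the 8 genes with the largest difference between the shares of Gata6-positive and Gata6-negative cells that held a UMI were Dnmt3a, Phlda1, Sdc4, Shkbp1, Nanog, Ccs, Itga3 and Basp1. The mean difference over the 2 libraries was 7.06 percentage points for Dnmt3a, the largest, and 5.82 for Basp1, the smallest of the 8, while Nanog and Ccs were detected in fewer Gata6-positive cells, by -6.46 and -6.18 points. These shares describe 2109 and 6829 cells of 2 libraries and carry no test.

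The same split was then made at 24h and 48h, in libraries that the rule did not use. At 24h there were 1455 and 860 Gata6-positive cells against 1429 and 1683 negative cells, and Gata6 measured 141 and 81.2 CPM in the positive sums, against 52.5 and 60.6 CPM at 9h. Of 12285 genes tested, 754 were called (6.14%), 387 higher (3.15%) and 367 lower (2.99%). At 48h 346 of 11773 genes were called (2.94%), 113 higher (0.96%) and 233 lower (1.98%). The replicates at each of these times carry different project codes, and each comparison was paired within its library.

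Of the 15 lowest genes at 9h, 14 had the same direction at 24h, 8 were called lower there and none higher. Nanog had 6.74 against 19.4 CPM in replicate 1 and 4.65 against 19.6 CPM in replicate 2 at 24h. The fold change was -1.75 on the log2 scale there (adjusted p = 5.6e-11) and -1.90 in the 48h libraries (adjusted p = 3.5e-20). Trh was lower by -1.57 and Sfn by -1.25 at 24h, and Ndufa4l2 by -0.91. The Ndufa4l2 difference at 24h lay mostly in replicate 2, with 27.9 against 71.1 CPM, beside 12.2 against 12.9 CPM in replicate 1. Of the 15 highest, 10 had the same direction at 24h, 6 were called higher and Stmn2 was called lower. Over all 28 genes called higher at 9h, by contrast, 13 had the same direction at 24h, 7 were called higher and 2 lower, and the median was 0.00. Over all 59 called lower, 54 had the same direction, 18 were called lower and none higher. The 6 were Itga3 (0.65), Shkbp1 (0.61), Sdc4 (0.58), Lamc1 (0.49), Dnmt3a (0.39) and Basp1 (0.37). At 48h Lamc1 (0.42) and Basp1 (0.30) were still called higher, Stmn2 (-0.32) and Mkrn1 (-0.28) were called lower, and Itga3, Shkbp1, Sdc4 and Dnmt3a were not, with values between 0.02 and 0.15.

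**Figure D4:**
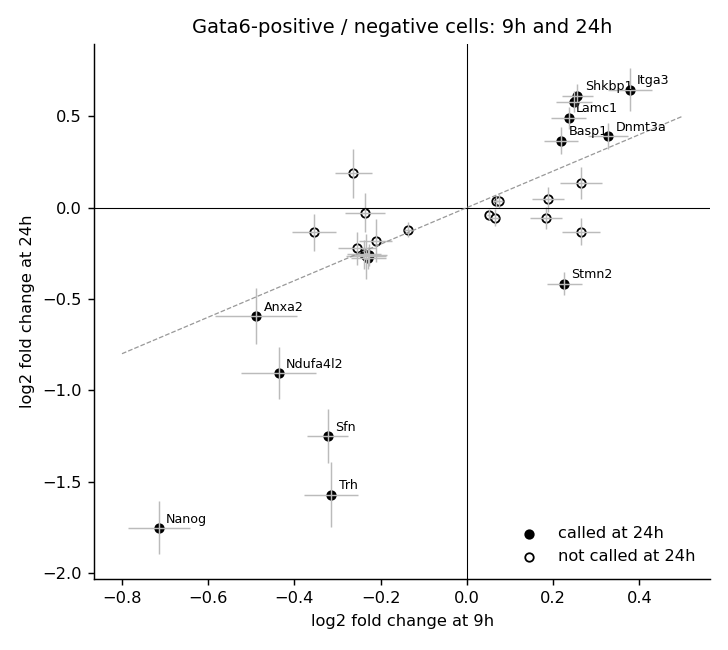
Log2 fold change between Gata6-positive and Gata6-negative cells at 9h (horizontal axis) and at 24h (vertical axis) for the 15 highest and 15 lowest called genes at 9h, with standard errors as grey bars, filled points called at 24h, some of them named, and a dashed line where both times are equal. Nanog, Trh and Sfn lie far below the line at 24h, and Stmn2 lies on opposite sides of 0 at the 2 times.

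Pdgfra and Gata4, which did not pass at 9h, did so at 24h. Pdgfra had 60.7 against 31.6 CPM and 31.5 against 19.1 CPM there (0.83, adjusted p = 5.4e-08), and the difference of its class difference between 24h and 9h was -0.23 (adjusted p = 0.77). Its level was thus higher at 24h in both classes, while the ratio between them was not shown to differ from that at 9h. Gata4 had 64.8 against 27.6 CPM and 38.5 against 22.8 CPM at 24h (1.00, adjusted p = 2.5e-09), and its class difference was larger than at 9h by 0.87 (adjusted p = 0.038). 1010001N08Rik had 24.3 against 7.00 CPM and 21.2 against 6.06 CPM (1.78, adjusted p = 2.1e-12). Over all genes, 273 of 12532 class differences differed between 24h and 9h (2.18%), 158 with a higher value at 24h (1.26%) and 115 with a lower one (0.918%).

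**Figure D5:**
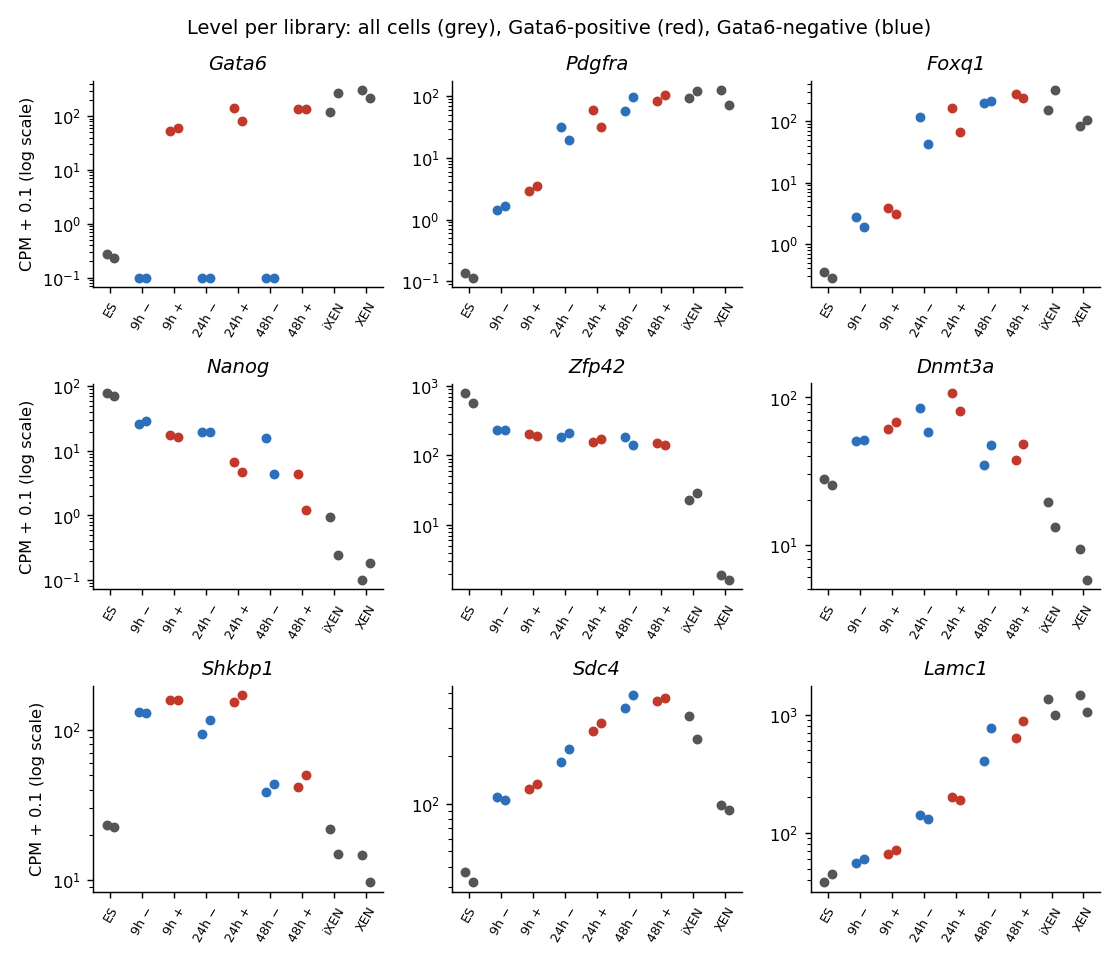
Level of 9 genes in each library (CPM plus 0.1, log scale), 1 point per library, for all cells of the ES 0h, iXEN and XEN groups (grey), Gata6-positive cells (red, +) and Gata6-negative cells (blue, -) at 9h, 24h and 48h. Gata6 is 0 in negative cells by the rule, Nanog is lower in the red than in the blue points at 9h and 24h, and Pdgfra lies at 1.35 to 3.34 CPM at 9h and at 19.1 CPM or more from 24h on.

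Set beside the end of the route, both classes at 9h had less of Lamc1 and Dab2. Lamc1, at 66.5 and 71.3 CPM in the responders, measured 1352 and 994 CPM in iXEN cells, and Dab2, at 2.73 and 1.81 CPM, measured 456 and 421 CPM. Gata6-negative 9h cells had 56.2 and 60.2 CPM of Lamc1 and 0.888 and 0.871 CPM of Dab2. Shkbp1 had 23.2 and 22.5 CPM at 0h, 157 CPM in both responder sums 132 and 129 CPM in Gata6-negative 9h cells and 21.8 and 14.8 CPM in iXEN cells, so its level at 9h was above both ends of the route in both classes. Dnmt3a had 19.2 and 13.1 CPM in iXEN cells against 61.0 and 68.2 CPM in the responders and 50.8 and 51.6 CPM in Gata6-negative cells. These levels span libraries of different projects and were not tested.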

How the data were processed

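Droplet 3' libraries of mouse cells were processed by the authors with the SEQC pipeline on GRCm38/mm10. It drops cells rich in mitochondrial RNA, assigns reads that align to several places and repairs errors in barcodes and UMIs. The deposited values are whole UMI counts per cell and gene. Of 20 libraries, 12 were used. From the counts, cells of 10000 or more UMIs were thinned without replacement to 10000 (numpy 2.4.6), and summed per library and class. Doublets were not called. The deepest cells were left out as an alternative. Sums were tested with edgeR 4.0.16 (R 4.3.3; TMM, filterByExpr, quasi-likelihood test, library as a block), with DESeq2 1.42.0 as an alternative. Both classes come from the same library, which is what pairs them. Gata6 was left out before adjustment. Calls needed an adjusted p under 0.05. The tests were tried on simulated counts. Gene positions and symbols are from GENCODE, where 21164 of 21991 symbols matched, and promoter windows are from RefSeq.

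The members, gene lists and rules were chosen with earlier results of these data known. Named genes are the 3 markers, the 15 highest and 15 lowest called genes with a mean of at least 5 CPM, listed genes with their list's count and the 8 genes of largest detection difference. The symbols were compared without regard to case. The result of 1 listed gene is not reported here.

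Alternatives changed the scaling, filter, test, block, thinning, depth, class rule, reference class, cells and libraries.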

Additional observations from a re-analysis of the deposited data

Results flagged for a closer look

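Each of the results here was picked out because the difference between Gata6-positive and Gata6-negative cells itself differed between 24h and 9h, by edgeR's quasi-likelihood test of the class by time interaction with Benjamini-Hochberg adjustment. Values are the log2 fold change at 24h minus that at 9h. All of these results kept their direction under every alternative, but their calls were often lost, and none was called without the pairing by library. No explanation was tested, and the 9h cells were sorted while the 24h cells were not.

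The class difference of Nanog was lower at 24h by 1.03 (-1.03, adjusted p = 0.00097), that of Trh by -1.25 (adjusted p = 0.00033) and that of Sfn by -0.91 (adjusted p = 0.0013). The value was -0.71 for Id2, a target of BMP signals (adjusted p = 0.00015), and -0.47 for Tdgf1, the Nodal co-receptor (adjusted p = 0.00014). Dppa5a shifted by -0.13 (adjusted p = 0.026). Stmn2 (-0.63, adjusted p = 1.3e-06), Suz12 (-0.39, adjusted p = 0.0077) and Itga6 (-0.35, adjusted p = 0.023) had values above 0 at 9h and below 0 at 24h.

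The class difference was higher at 24h for Gata4 (0.87, adjusted p = 0.038), Runx1 (0.47, adjusted p = 0.026), Serpinh1, the collagen chaperone (0.38, adjusted p = 0.0014), Shkbp1 (0.36, adjusted p = 0.0017), Sdc4 (0.34, adjusted p = 0.0023), Dnmt3b (0.34, adjusted p = 0.021), Phlda1 (0.28, adjusted p = 0.040) and Lamc1 (0.26, adjusted p = 0.039).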

How the results depend on the processing

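The number of genes called at 9h, 87 as reported, was unstable. It was 195 with RLE size factors, 244 without the filter on low counts, 14 with DESeq2 (2 higher, 12 lower), 149 with the class read after thinning, 1083 without thinning and 425 at a depth of 20000 UMIs. It was 141 for 2 or more Gata6 UMIs, 205 against Gata6-negative cells without a Pdgfra, Gata4 or Sox17 UMI and 136 without cells of other types. Alternatives chosen after seeing the data gave 238, 207, 172 and 191 with 4 more thinning seeds, beside 288 with the planned other seed, 235 without shared barcodes, 155 without the 3 cells rich in endoderm RNA and 65 with standard errors kept at or above counting error. With all times in 1 model 2 genes were called, Nanog and 1010001N08Rik, and leaving out a 9h library within it left 0 to 2. The cause of these shifts was not tested. Without replicate 2 there were 0 calls and 360 genes at an unadjusted p under 0.05. Of the 30 leading genes, 30 passed with RLE, 23 with the counting error floor, 5 with DESeq2 and 1 in the joint model.

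Without the replicate block that pairs the classes of a library, 0 genes were called by edgeR at 9h, 24h or 48h or for the difference between 24h and 9h, with 801, 192, 20 and 242 genes at an unadjusted p under 0.05, in this order.

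At 24h, 754 calls became 113 with DESeq2 and 463 with the class read after thinning, and at 48h, 346 became 33 with DESeq2. Libraries were left out within the model of all times, where 861 calls at 24h became 338 to 407, and 278 at 48h became 39 without replicate 1 and 384 without replicate 2. The 273 differences between 24h and 9h became 151 in the joint model, and those 151 became 34 to 85 without a replicate. Of 64 named genes, 61 kept their direction at 9h under every alternative. Gata4 (-0.061) and Junb (-0.068) reversed at a depth of 5000 UMIs and Stmn2 (-0.036) with the class read after thinning. Pdgfra, Gata4 and Sox17 got no value against the stricter reference class, which was chosen on them. The share of Gata6-positive cells, 11.6% and 11.1% when thinned to 10000 UMIs, was 6.28% in both libraries at 5000 and 19.9% and 19.3% at 20000.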

Other observations

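Of the other abundant genes called lower in Gata6-positive cells, 5 are given here, chosen after their values were seen and with no count of their families. The small heat shock protein gene Hspb1 differed by -7.26% (852 against 917 CPM in replicate 1 and 833 against 890 CPM in replicate 2, log2 fold change -0.11, adjusted p = 0.0065). The chaperone genes Hspa8, Hsp90aa1 and Hsp90ab1 differed by -6.08%, -5.86% and -2.68%, and Gapdh, an enzyme of glycolysis, by -4.71%. These differences are small.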
